A study of Mus musculus with 7 samples.

Results

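The transcription factors GATA1 and GATA2 and the nuclear proteins that work with them were followed in 7 mouse fetal livers of stage E12.5. The set held 10 genes, fixed by name: Gata1, Gata2, Zfpm1, Tal1, Lyl1, Lmo2, Ldb1, Cbfa2t3, Gfi1b and Nfe2. Each was found by its Ensembl identifier in a mouse GENCODE annotation, and all 10 of 10 were among the 39017 genes of the count files and among the 15800 genes that passed the filter on low counts. The livers were TAF10KO (2), TAF10HET (3) and WT (2), all C57BL/6, and RNA came from whole liver cell suspensions. TAF10 is a subunit of the general transcription factor TFIID and of the SAGA coactivator. By title, TAF10KO livers were lox/lox with EpoCre, a Cre recombinase driven by the erythropoietin receptor gene and so active in erythroid cells, while the series design writes the same group as lox/KO. TAF10HET replicate 1 was lox/wt with EpoCre, and TAF10HET replicates 2 and 3 were wt/ko with EpoCre, so the titles give them a ko allele in place of a lox allele. WT livers were lox/lox without Cre. The titles also carry 2 date codes, and nothing says what happened on those dates. TAF10KO replicate 2, TAF10HET replicates 2 and 3 and WT replicate 2 carried the second date code, and TAF10KO replicate 1, TAF10HET replicate 1 and WT replicate 1 the first.

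GATA1 binds GATA motifs and drives the maturation of red cells and megakaryocytes, while GATA2 acts earlier, in stem and progenitor cells, and gives way to GATA1 as red cell precursors mature. FOG1, the product of Zfpm1, docks onto the GATA zinc finger, and a complex of TAL1 or its relative LYL1 with E proteins, LMO2 and LDB1 often sits beside GATA1 on DNA, where LDB1 also holds enhancers and promoters together. ETO2, the product of Cbfa2t3, and GFI1B bring corepressors to these sites, and NFE2 takes part in globin gene and platelet gene expression. The fetal liver at this stage is the main site of red cell formation.

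The libraries held 18008391 to 43401474 reads in genes, and 20646 to 22753 genes had a count. The first principal component of the libraries held 63.2% of their variance and split them by date code, from 23.2 to 52.95 on the second and from -71.2 to -46.7 on the first. Embryo sex, read from Xist, was male in TAF10KO replicate 2 and TAF10HET replicate 1 and female in the other 5 livers. In TAF10HET replicate 1, Gm42418, a locus that overlaps a ribosomal RNA repeat, took 7.71% of the counts, and the highest gene of any other library took 2.28%. Taf10 itself stood at 37.8 and 43.8 CPM (reads of a gene scaled to library size) in TAF10KO livers, 78.0, 63.6 and 63.0 CPM in TAF10HET livers and 71.9 and 96.4 CPM in WT livers. Both TAF10KO livers lay below every other liver, and the fitted log2 difference of TAF10KO minus WT was -1.04 (edgeR quasi-likelihood test, adjusted p = 0.0542). The difference passed the threshold with DESeq2 (adjusted p = 5.39e-06), with no filter (5.37e-18), with only the groups compared (4.76e-05), with embryo sex as a term (0.00724), with library totals alone, chosen after seeing the data (0.0156), and without TAF10HET replicate 1 (0.000269), at -1.18 to -0.98. The titles number the livers separately, so the replicates were taken as separate livers.

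The 10 genes lie on chromosomes 2, 4, 6, 8, 15, 19 and X of mm10. Gata1 (ENSMUSG00000031162, chrX:7959260-7978071, minus strand) and Gata2 (ENSMUSG00000015053, chr6:88193891-88207032, plus strand) are the pair the set is built around. Zfpm1 (chr8:122282141-122337251) and Cbfa2t3 (chr8:122625141-122699109) are near each other on chromosome 8, and Lyl1 (chr8:84701457-84704715) is far from both. Tal1 lies at chr4:115056426-115071755, Lmo2 at chr2:103957986-103981878, Gfi1b at chr2:28609450-28621982, Ldb1 at chr19:46031570-46045214 and Nfe2 at chr15:103248212-103258403. Exons of Ldb1 overlap those of Pprc1 on the other strand, which held 1984 to 5014 reads a library. Exons of Lyl1 overlap those of Nfix on the other strand (326 to 842 reads), and exons of Cbfa2t3 overlap the antisense gene Gm10612 (4 to 17 reads). Whether the counting used strand is not stated in any source at hand, so reads from these overlaps cannot be told apart.

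Promoter windows of 250 bases before the transcript start were taken from RefSeq (GRCm38.p6) for 8 of the 10 genes, 13 windows in all, since several genes have more than 1 start. They are shown because GATA1 and GATA2 bind GATA letters, and some genes of the set carry such letters. The letters searched were AGATAA, with TGATAA as a variant, and AGATAG, with TGATAG as a variant, on both strands, and capitals mark each match, which reads in reverse complement where the match is on the other strand. None of the matches overlap each other or the E-box letters CANNTG, to which TAL1 and its E protein partners bind. The Gata1 window is chrX:7967911-7968160 (minus strand), the first Gata2 window chr6:88193641-88193890 (plus), the first Tal1 window chr4:115056176-115056425 (plus), the Gfi1b window chr2:28621983-28622232 (minus) and the first Cbfa2t3 window chr8:122699110-122699359 (minus). Each is printed 5′ to 3′ and ends at the base before the start.
Gata1: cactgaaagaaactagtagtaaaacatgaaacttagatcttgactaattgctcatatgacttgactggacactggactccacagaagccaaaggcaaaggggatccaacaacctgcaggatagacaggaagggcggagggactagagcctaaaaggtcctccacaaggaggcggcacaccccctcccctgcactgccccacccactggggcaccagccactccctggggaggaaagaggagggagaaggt
Gata2: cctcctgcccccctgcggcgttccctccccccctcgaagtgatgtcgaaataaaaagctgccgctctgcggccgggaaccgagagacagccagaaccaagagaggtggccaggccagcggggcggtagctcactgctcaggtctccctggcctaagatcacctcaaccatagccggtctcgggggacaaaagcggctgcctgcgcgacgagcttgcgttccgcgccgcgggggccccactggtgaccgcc
Tal1: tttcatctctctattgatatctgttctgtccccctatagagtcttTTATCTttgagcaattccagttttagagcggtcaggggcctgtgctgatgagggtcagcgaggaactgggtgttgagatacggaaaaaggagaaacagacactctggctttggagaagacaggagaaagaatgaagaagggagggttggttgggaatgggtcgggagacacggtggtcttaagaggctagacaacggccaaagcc
Gfi1b: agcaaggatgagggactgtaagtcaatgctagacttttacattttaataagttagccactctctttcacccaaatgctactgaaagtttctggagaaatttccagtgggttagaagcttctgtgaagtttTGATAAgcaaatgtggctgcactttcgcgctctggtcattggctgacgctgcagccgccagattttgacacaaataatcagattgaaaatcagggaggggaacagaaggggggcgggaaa
Cbfa2t3: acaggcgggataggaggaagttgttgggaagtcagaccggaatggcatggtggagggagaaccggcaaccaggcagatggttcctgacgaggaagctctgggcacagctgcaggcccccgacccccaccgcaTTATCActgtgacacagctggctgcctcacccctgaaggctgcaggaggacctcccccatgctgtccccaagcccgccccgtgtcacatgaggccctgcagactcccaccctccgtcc
GATA letters were in 4 of the 13 windows, from 4 of the 8 genes, against 26.5% of 32851 windows of the same length in all. They began 205 bases before the start of Tal1, 120 before that of Gfi1b and 118 before that of Cbfa2t3. A further window of Ldb1, which is not printed, held them at 240 and 200 bases before the start. The Gata1 window and both Gata2 windows held none of these letters. The Gata1 window lies inside the span of the gene given above, so the bases before its annotated 5′ end at 7978071 were not searched. E-box letters were in 6 of the 13 windows, against 66.2% of all windows. Lmo2 and Nfe2 are named only.

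Levels were compared between genes as CPM per kilobase of exon, averaged over the 7 livers. Lmo2 was highest at 137 CPM per kb, then Tal1 at 132, Gata1 at 99.2, Zfpm1 at 91.6, Nfe2 at 80.9, Lyl1 at 58.9, Gfi1b at 55.3, Ldb1 at 52.96, Cbfa2t3 at 4.83 and Gata2 at 2.60 CPM per kb. Neighbours in this order overlapped in their ranges over the livers except Ldb1 and Cbfa2t3. Tal1 was above Gata1, Nfe2 above Lyl1 and Cbfa2t3 above Gata2 within every one of the 7 livers, while Gfi1b was above Ldb1 in 3 of 7 only. Cbfa2t3 ranked 9 and Gata2 ranked 10 in all 7 livers. The progenitor factor and the corepressor ETO2 stood far below the rest per length, and counts for Gata2 were the lowest of the set, with 183 reads in its lowest library, against 24708 reads for Tal1 in its highest.

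**Figure D1:**
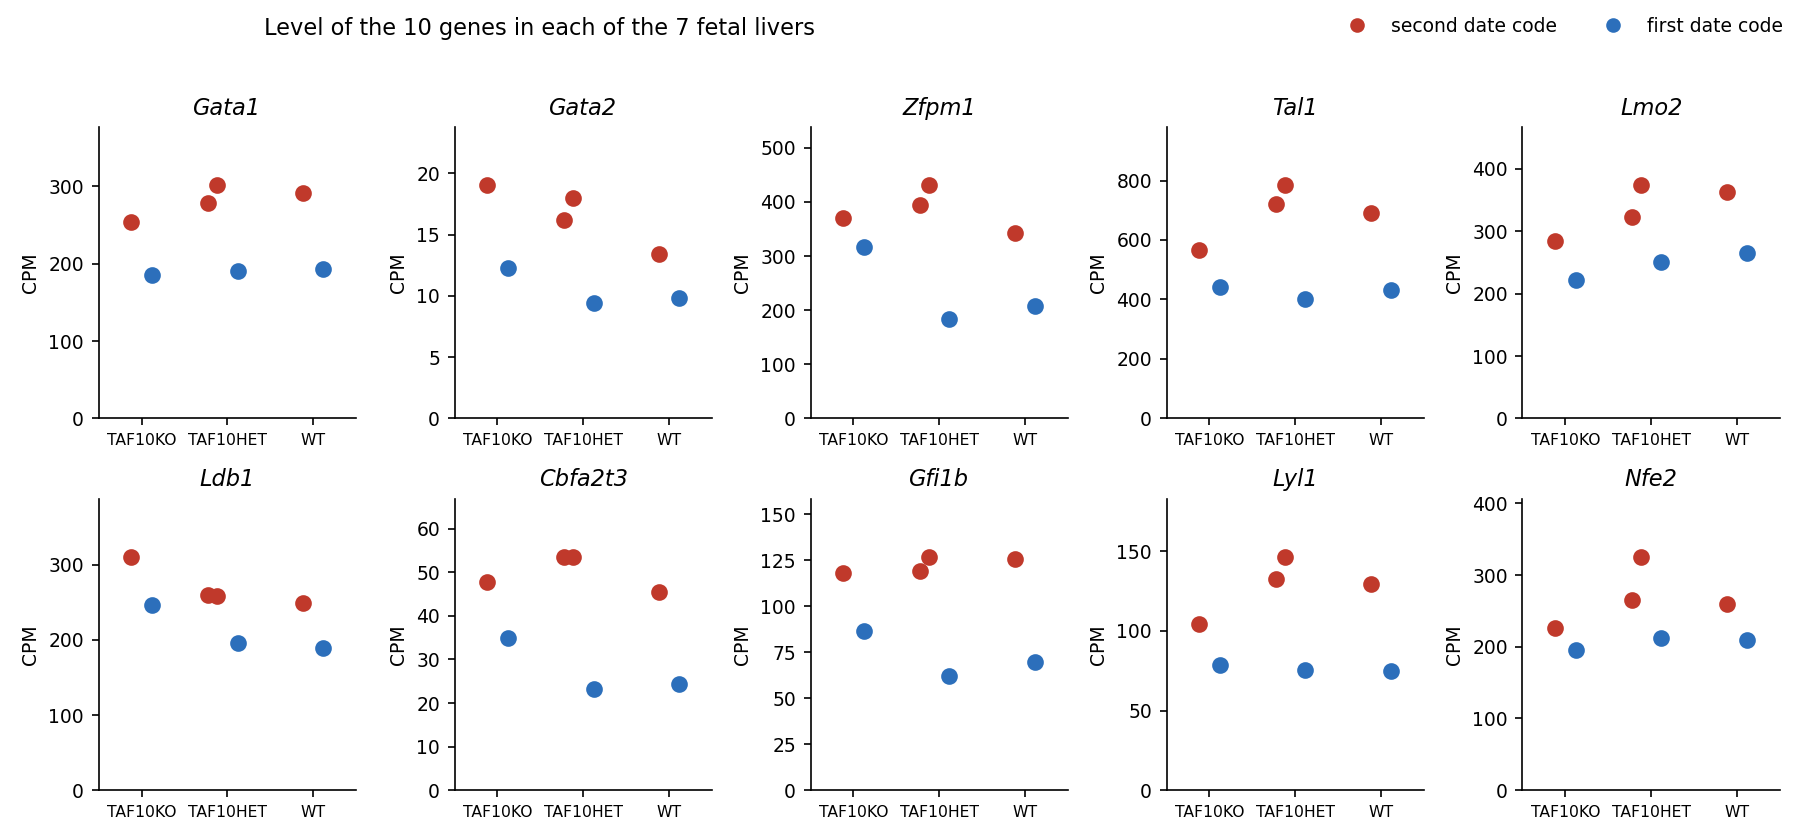
CPM of each of the 10 genes (linear axis from 0, 1 panel a gene) in TAF10KO, TAF10HET and WT livers, 1 point a liver, coloured by date code. In all 10 genes the 4 livers of the second date code sit above the 3 of the first, as for Gata1 (254 to 301 CPM on the second date code, 186 to 193 CPM on the first).

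All 10 genes were higher in the livers of the second date code than in those of the first, and this was the widest difference in the set. In each gene the lowest of the 4 livers of the second date code was above the highest of the 3 of the first, which held for 18.8% of all genes tested. In the fit with genotype as the other term, 10 of 10 genes rose and 0 fell at an adjusted p under 0.05, against 41.4% of all genes that moved either way and 18.7% that rose. Their median log2 difference of second minus first date code was 0.66, beside 0.02 over all genes tested. Each gene lay between percentile 84.2 (Nfe2) and 98.2 (Cbfa2t3) of all genes in this difference. Markers of several cell types moved with the date code too, and the date code cannot be told apart from whatever else differed between these 2 sets of livers.

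Gata1 stood at 254 CPM in the TAF10KO liver, 301 and 279 CPM in the TAF10HET livers and 291 CPM in the WT liver of the second date code. On the first date code it stood at 186 CPM in the TAF10KO liver, 191 CPM in the TAF10HET liver and 193 CPM in the WT liver. The TAF10KO liver was the lowest on each date code, by a narrow margin on the first, and the 3 genotypes overlapped. The mean was 281 ± 20.4 CPM on the second date code (SD, n = 4) and 189.6 ± 3.54 CPM on the first (SD, n = 3). Gata1 rose by 0.56 on the log2 scale between date codes (SE 0.068, edgeR quasi-likelihood test, adjusted p = 0.00101). The log2 difference of TAF10KO minus WT was -0.12 (95% interval -0.33 to 0.08, adjusted p = 0.487), which did not pass the test.

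Gata2 stood at 19.0 CPM in the TAF10KO liver, 18.0 and 16.2 CPM in the TAF10HET livers and 13.4 CPM in the WT liver of the second date code. In the livers of the first date code it had 12.3 CPM in the TAF10KO liver, 9.46 CPM in the TAF10HET liver and 9.87 CPM in the WT liver. The TAF10KO liver was the highest on each date code. Gata2 rose by 0.66 on the log2 scale between date codes (SE 0.11, edgeR adjusted p = 0.00349), with means of 16.6 ± 2.46 CPM on the second (SD, n = 4) and 10.5 ± 1.55 CPM on the first (SD, n = 3). For TAF10KO minus WT the log2 difference was 0.41 (95% interval 0.09 to 0.73, edgeR unadjusted p = 0.0191, adjusted p = 0.197), so the difference did not pass after adjustment. Within date codes it was 0.50 on the second and 0.32 on the first.

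The ratio of Gata1 to Gata2, both as CPM per kb, sets these genes against each other. It was 29.5 in the TAF10KO liver, 37.1 and 38.1 in the TAF10HET livers and 48.1 in the WT liver on the second date code. On the first date code it was 33.4 in the TAF10KO liver, 44.6 in the TAF10HET liver and 43.2 in the WT liver. Both TAF10KO livers had a lower ratio than every other liver, and the TAF10HET and WT livers overlapped. Unlike either gene alone, the ratio did not sort by date code. It was formed after the values of the genes were known and is given as a description, with no test.

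**Figure D2:**
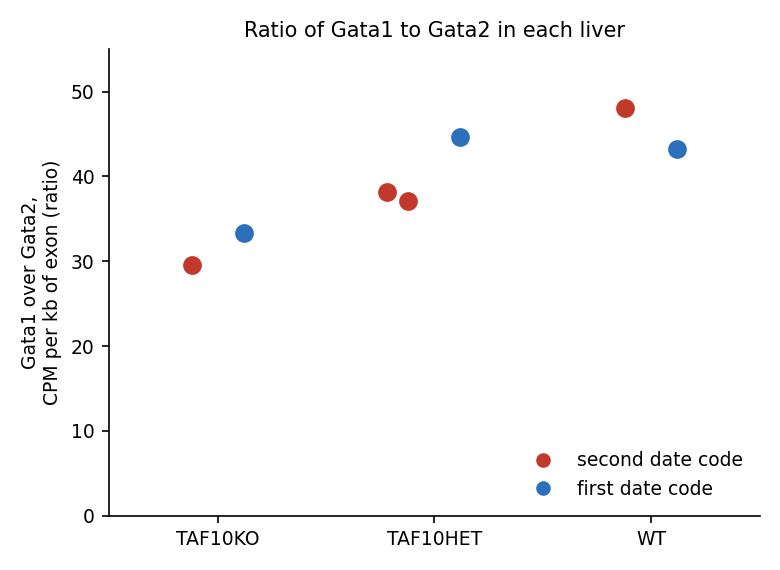
Ratio of Gata1 to Gata2 (CPM per kb of exon, linear axis from 0) in each liver by genotype, coloured by date code. The 2 TAF10KO livers are at 29.5 and 33.4, below the 3 TAF10HET livers at 37.1 to 44.6 and the 2 WT livers at 43.2 and 48.1.

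Zfpm1, which encodes the GATA partner FOG1, stood at 369.6 CPM in the TAF10KO liver, 431 and 394 CPM in the TAF10HET livers and 343 CPM in the WT liver of the second date code. On the first it had 317 CPM in the TAF10KO liver, 184 CPM in the TAF10HET liver and 207 CPM in the WT liver. The genotypes were mixed on the second date code, while on the first the TAF10KO liver was well above the other 2. Zfpm1 rose by 0.74 on the log2 scale between date codes (SE 0.17, edgeR adjusted p = 0.0124), and leaving out WT replicate 1 or WT replicate 2 ended this call (edgeR adjusted p = 0.0648 and 0.0687). TAF10KO minus WT was 0.38 (95% interval -0.11 to 0.87, edgeR adjusted p = 0.382), with 0.11 within the second date code and 0.61 within the first. Without TAF10KO replicate 1 the difference was -0.02, and without TAF10KO replicate 2 it was 0.70 (edgeR adjusted p = 0.0399), so the value rested on which TAF10KO liver was kept.

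Tal1, the basic helix-loop-helix factor at the heart of the complex, stood at 567 CPM in the TAF10KO liver, 784 and 722 CPM in the TAF10HET livers and 692 CPM in the WT liver of the second date code. On the first date code it stood at 442 CPM in the TAF10KO liver, 401 CPM in the TAF10HET liver and 434 CPM in the WT liver. The TAF10KO liver was lowest on the second date code and highest, by a narrow margin, on the first. Tal1 rose by 0.67 on the log2 scale between date codes (SE 0.11, edgeR adjusted p = 0.00337). The log2 difference of TAF10KO minus WT was -0.12 (95% interval -0.45 to 0.21, edgeR adjusted p = 0.687), and it was 0.06 without TAF10KO replicate 2.

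Lyl1, a close relative of Tal1 that binds the same partners, had 104 CPM in the TAF10KO liver, 146 and 133 CPM in the TAF10HET livers and 129 CPM in the WT liver of the second date code. In the livers of the first date code it had 78.7 CPM in the TAF10KO liver, 75.7 CPM in the TAF10HET liver and 74.9 CPM in the WT liver. As for Tal1, the TAF10KO liver was the lowest on the second date code and the highest on the first. Lyl1 rose by 0.71 on the log2 scale between date codes (SE 0.099, edgeR adjusted p = 0.00172), and TAF10KO minus WT was -0.11 (95% interval -0.40 to 0.18, edgeR adjusted p = 0.675), or 0.06 without TAF10KO replicate 2. Over the 7 livers Tal1 and Lyl1 had the most alike patterns of all pairs in the set. Their log2 CPM, each centred on its own mean, differed by a root mean square of 0.042, and the ratio of Tal1 to Lyl1 per kb stayed between 2.18 and 2.38.

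Lmo2, the LIM-only bridge between TAL1 and GATA1, stood at 284 CPM in the TAF10KO liver, 374 and 323 CPM in the TAF10HET livers and 364 CPM in the WT liver of the second date code. On the first it stood at 222 CPM in the TAF10KO liver, 251 CPM in the TAF10HET liver and 265 CPM in the WT liver. The TAF10KO liver was the lowest on each date code. Lmo2 rose by 0.43 on the log2 scale between date codes (SE 0.076, edgeR adjusted p = 0.00441). For TAF10KO minus WT the log2 difference was -0.31 (95% interval -0.53 to -0.08, edgeR unadjusted p = 0.0148, adjusted p = 0.179), with -0.36 within the second date code and -0.26 within the first.

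Ldb1, the dimerising protein that LMO2 recruits, stood at 310.1 CPM in the TAF10KO liver, 259 and 260.1 CPM in the TAF10HET livers and 249 CPM in the WT liver of the second date code. On the first date code it had 246 CPM in the TAF10KO liver, 195 CPM in the TAF10HET liver and 189 CPM in the WT liver. The TAF10KO liver was the highest on each date code, by a like margin. Ldb1 rose by 0.38 on the log2 scale between date codes (SE 0.060, edgeR adjusted p = 0.00268). TAF10KO minus WT was 0.35 (95% interval 0.17 to 0.53, edgeR unadjusted p = 0.00222, adjusted p = 0.0922), the smallest adjusted p of the 10 genes in that comparison. The difference was 0.32 within the second date code and 0.38 within the first. It passed with DESeq2 (0.34, adjusted p = 0.00251), and with edgeR without TAF10KO replicate 1 (adjusted p = 0.0443) or TAF10HET replicate 1 (adjusted p = 0.0292). Lmo2 and Ldb1, whose products bind each other, thus lay on opposite sides of 0, and neither passed the test in the fit with all 7 livers.

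Cbfa2t3, which encodes the corepressor ETO2 of the same complex, stood at 47.9 CPM in the TAF10KO liver, 53.4 and 53.5 CPM in the TAF10HET livers and 45.6 CPM in the WT liver of the second date code. In the livers of the first date code it had 34.8 CPM in the TAF10KO liver, 23.2 CPM in the TAF10HET liver and 24.5 CPM in the WT liver. The genotypes were mixed on the second date code, and the TAF10KO liver was the highest on the first. Cbfa2t3 had the widest date difference of the set, a rise of 0.87 on the log2 scale (SE 0.13, edgeR adjusted p = 0.00243). The log2 difference of TAF10KO minus WT was 0.30 (95% interval -0.09 to 0.69, edgeR adjusted p = 0.385). It was 0.07 within the second date code and 0.51 within the first. It was -0.01 without TAF10KO replicate 1 and 0.56 without TAF10KO replicate 2 (edgeR adjusted p = 0.0399). Zfpm1 had a like pattern, from which Cbfa2t3 differed by a root mean square of 0.097 over the 7 livers.

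Gfi1b, a zinc finger repressor needed for red cells and platelets, stood at 118 CPM in the TAF10KO liver, 127 and 119 CPM in the TAF10HET livers and 126 CPM in the WT liver of the second date code. On the first it had 86.6 CPM in the TAF10KO liver, 62.2 CPM in the TAF10HET liver and 69.4 CPM in the WT liver. The genotypes were close together on the second date code and the TAF10KO liver was above the rest on the first. Gfi1b rose by 0.78 on the log2 scale between date codes (SE 0.10, edgeR adjusted p = 0.00139). For TAF10KO minus WT the log2 difference was 0.12 (95% interval -0.18 to 0.43, edgeR adjusted p = 0.660), and -0.12 without TAF10KO replicate 1.

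Nfe2, the erythroid and megakaryocytic subunit of a leucine zipper dimer with small MAF proteins, stood at 227 CPM in the TAF10KO liver, 325 and 265 CPM in the TAF10HET livers and 260.0 CPM in the WT liver of the second date code. On the first date code it had 195 CPM in the TAF10KO liver, 212 CPM in the TAF10HET liver and 209 CPM in the WT liver. The TAF10KO liver was the lowest on each date code. Nfe2 had the smallest date difference of the set, a rise of 0.35 on the log2 scale (SE 0.094, edgeR adjusted p = 0.0217). That call was lost without TAF10HET replicate 1 (adjusted p = 0.0757), WT replicate 1 (adjusted p = 0.104) or WT replicate 2 (adjusted p = 0.10). It was also lost with library totals in place of the TMM factors, an alternative chosen after seeing the data, where the difference was 0.23 (edgeR adjusted p = 0.141) and the median of all genes shifted to -0.10. TAF10KO minus WT was -0.15 (95% interval -0.43 to 0.13, edgeR adjusted p = 0.547).

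**Figure D3:**
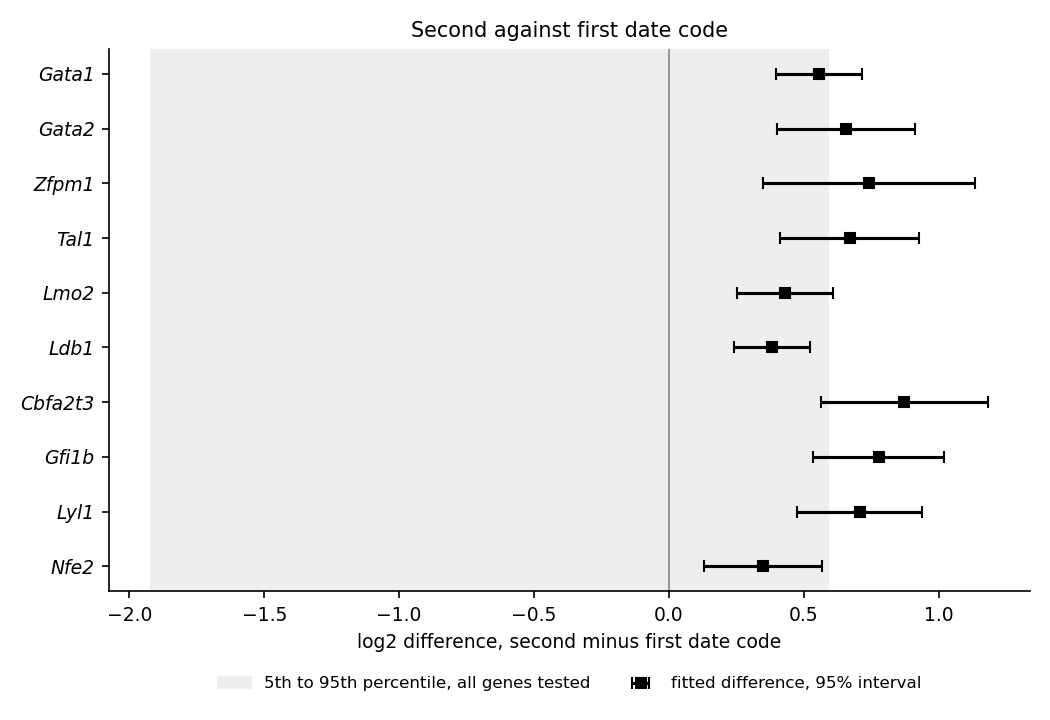
Fitted log2 difference of second minus first date code for each of the 10 genes with its 95% interval, and in grey the range from the 5th to the 95th percentile of all 15800 genes tested (-1.92 to 0.59). All 10 intervals lie above 0, from 0.35 for Nfe2 to 0.87 for Cbfa2t3.

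By genotype, TAF10KO against WT asks whether these genes differed in RNA level between whole livers of the 2 groups. Taf10 itself was still read in TAF10KO livers, at a mean of 40.8 CPM against 84.2 CPM in WT livers. WT livers had no Cre, so the loss of Taf10 and the presence of EpoCre cannot be told apart here. None of the 10 passed: edgeR called 0 of 10, against 0.608% of all genes tested (96 genes), and DESeq2 called 1, Ldb1, against 589 genes in all. At an unadjusted p under 0.05 edgeR had 3 of 10, with Gata2 and Ldb1 higher and Lmo2 lower, against 17.9% of all genes. The median log2 difference was 0.00 over the 10 genes, beside 0.03 over all genes. TAF10KO was above WT on both date codes in 4 genes (Gata2, Zfpm1, Ldb1 and Cbfa2t3), against 34.3% of all genes, and below WT on both in 3 (Gata1, Lmo2 and Nfe2), against 30.3%. These shares are near the background. Leaving out TAF10HET replicate 1 gave 1 call, Ldb1, against 887 genes in all. Without TAF10KO replicate 1 the Ldb1 difference was 0.32. Without TAF10KO replicate 2 the Zfpm1 difference was 0.70 and that of Cbfa2t3 was 0.56. With embryo sex as a further term, which leaves few degrees of freedom, 6 of the 10 genes passed, against 2725 of the 15800 genes tested. The 6 were Gata2, Zfpm1, Ldb1, Cbfa2t3 and Gfi1b, all higher, and Lmo2, lower. The 95% intervals are wide beside these differences, so a p that missed the threshold does not show equal levels.

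**Figure D4:**
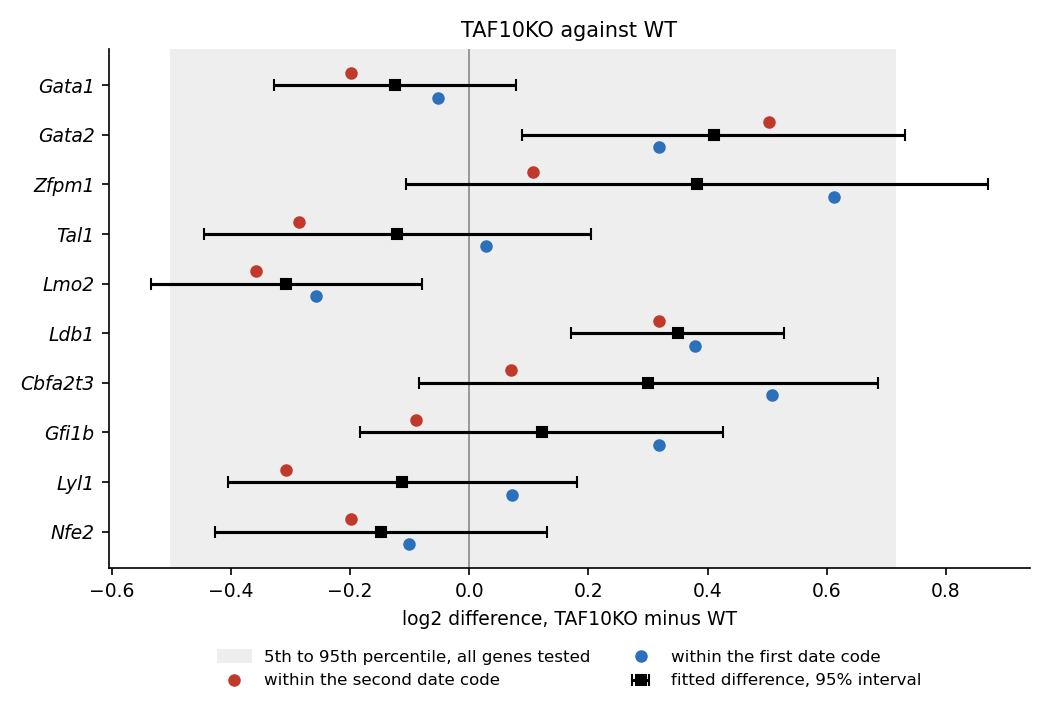
Log2 difference of TAF10KO minus WT for each gene, with the fitted value and its 95% interval and the values within the second and the first date code. Gata2 (0.41), Ldb1 (0.35) and Lmo2 (-0.31) have intervals that exclude 0, with both date codes on the same side of 0. Zfpm1 is at 0.11 and 0.61 within the date codes.

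The rise between date codes was also read within each genotype. For Zfpm1 the log2 difference of second minus first date code was 0.22 within TAF10KO, 1.16 within TAF10HET and 0.73 within WT. For Cbfa2t3 it was 0.46 within TAF10KO, 1.20 within TAF10HET and 0.90 within WT. For Gfi1b it was 0.45 within TAF10KO, 0.98 within TAF10HET and 0.86 within WT, and for Lyl1 it was 0.41 within TAF10KO, 0.88 within TAF10HET and 0.79 within WT. In 9 of 10 genes, all but Gata2, it was positive in both TAF10KO and WT and smaller in TAF10KO, against 22.2% of all genes tested. That share also counts genes that did not rise, so it is not the share among genes that rose with the date code. On the first principal component TAF10KO replicate 2 also lay nearest the first date code. It was at 23.2, against 39.6 to 52.95 for the other livers of the second date code. On the second date code the TAF10KO liver was the lowest of the 4 in 6 genes (Gata1, Tal1, Lyl1, Lmo2, Gfi1b and Nfe2), against 32.8% of all genes. On the first it was the highest of 3 in 7 genes, against 39.9% of all genes, and the lowest in 3, against 36.6%. A test of the difference itself, chosen after seeing the data, had 0 of 10 genes past the threshold by edgeR, against 1.15% of all genes (181), and it rested on 1 residual degree of freedom. DESeq2 was not run for it. The smallest adjusted p was 0.0807 for Zfpm1, whose TAF10KO minus WT difference differed by -0.51 as second minus first date code, and 5 of 10 genes (Zfpm1, Cbfa2t3, Gfi1b, Lyl1 and Tal1, all lower) had an unadjusted p under 0.05, against 15.2% of all genes. TAF10KO replicate 2 was also the male of that pair, so sex and date code cannot be told apart within TAF10KO.

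TAF10HET against WT gave no call among the 10 genes with edgeR or DESeq2, against 0.00633% of all genes tested (1 gene) with edgeR. At an unadjusted p under 0.05 there were 0 of 10, against 3.35% of all genes. The log2 differences ran from -0.06 for Lmo2 to 0.18 for Gata2 (95% interval -0.12 to 0.49), and all 10 adjusted p-values were 0.999. TAF10HET replicates on the 2 date codes also differ in allele, lox/wt on the first and wt/ko on the second. They differ in sex as well, male on the first and female on the second. Allele, sex and date code thus cannot be told apart within that group.

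TAF10KO against TAF10HET compares groups that both carry EpoCre, though by title only TAF10HET livers have a wt allele. It called 0 of 10 genes with edgeR, against 1.61% of all genes tested (254 genes), and 1 with DESeq2, Ldb1 (0.28, adjusted p = 0.00916). At an unadjusted p under 0.05 edgeR had 3 of 10, against 17.1% of all genes. These were Ldb1 at 0.29 (95% interval 0.13 to 0.45, adjusted p = 0.10), Lmo2 at -0.24 (-0.46 to -0.03, adjusted p = 0.234) and Nfe2 at -0.27 (-0.53 to -0.01, adjusted p = 0.273). Lyl1 passed without TAF10KO replicate 1 (-0.40, edgeR adjusted p = 0.0242) and Gfi1b without TAF10KO replicate 2 (0.41, adjusted p = 0.0398). This comparison shares its TAF10KO livers with the one against WT, so the 2 sets of values are not independent.

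The genes that act with the 10 were read from lists, beginning with partners, corepressors and other factors. Counts between date codes stand against a background of 18.7% of all genes tested that rose and 41.4% called in either direction. Between date codes, 3 of 10 E proteins, LDB1 binders and ID inhibitors rose and 3 fell, among them Id3 and Id2, inhibitors of E proteins, by -1.26 and -0.66 on the log2 scale (SE 0.14 and 0.073, edgeR adjusted p = 0.000665 for Id3 and 0.00068 for Id2). Of 17 corepressor subunits 5 rose and 0 fell, with the NuRD subunits Mbd2 at 0.43 and Mta2 at 0.41. Of 7 partners and relatives of NFE2, 2 rose, Mafg at 0.28 and Nfe2l2 at 0.29, and 1 fell. Of 10 other blood transcription factors 7 rose and 1 fell, with Bcl11a, a repressor of embryonic globin genes, at 0.59 and Runx1 at 0.55. The 5 other GATA factors went the other way: 0 rose and 4 fell, with Gata6 at -1.55 and Gata5 at -2.13, factors of endoderm and heart. Gata6 stood at 10.6 ± 1.42 CPM on the second date code (SD, n = 4) and 30.8 ± 4.34 CPM on the first (SD, n = 3), so these factors and the GATA pair of blood cells moved in opposite directions between date codes. Of the E proteins and their binders, 4 rose and 6 fell without either TAF10KO liver, and 2 rose and 2 fell without TAF10HET replicate 1 or either WT liver. The counts of blood factors that rose were 4 without WT replicate 1 and 5 without WT replicate 2. The corepressors that rose were 2 without either WT liver and 12 without either TAF10KO liver, while the 4 GATA factors fell with any 1 liver left out. The rises of Mafg and Nfe2l2 were lost when any 1 TAF10HET or WT liver was left out (edgeR adjusted p from 0.0654 to 0.164).

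Lists of known GATA1 targets were read next, of which 4 activated genes are also on the erythroid marker list. Of 15 genes that GATA1 activates, 11 rose and 0 fell between date codes (median 0.41), with the haem synthesis gene Alas2 at 0.60. Of 5 genes that GATA1 represses, 3 rose and 0 fell (median 0.52), with Myc at 0.66 and Myb at 0.52. The called genes of both lists thus rose, and 3 repressed genes rose whichever 1 liver was left out. Of the activated genes only 1 passed without WT replicate 1 and 2 without WT replicate 2, against 8 to 11 with any 1 of the other livers left out. In TAF10KO against WT none of the 15 activated genes passed, with a median of -0.33 and 2 of 15 positive. Hbb-bs, the most abundant, was at -0.52 (edgeR adjusted p = 0.223). Over all genes tested, edgeR had 17.9% at an unadjusted p under 0.05. DESeq2 called 589 genes in all, and edgeR called 887 without TAF10HET replicate 1. DESeq2 called 5 of the 15 lower and edgeR had 8 lower at an unadjusted p under 0.05, and edgeR called 7 lower without TAF10HET replicate 1, 4 without TAF10KO replicate 1 and 1 without TAF10KO replicate 2. None of the 5 repressed genes passed with edgeR or DESeq2, and 0 had an unadjusted p under 0.05 (median 0.12, Myc at 0.27, edgeR adjusted p = 0.287), though 1 was called higher without TAF10KO replicate 2.

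In the same comparison of TAF10KO with WT, none of the partner lists held a gene called by edgeR. DESeq2 called 1 corepressor higher and 1 lower and 1 NFE2 partner higher, and at an unadjusted p under 0.05 edgeR had 10 genes of these lists higher and 2 lower. The E protein Tcf3 was at 0.01, the NuRD subunit Rbbp4 at -0.14, the small MAF protein Mafg at 0.44 (edgeR adjusted p = 0.0994), Klf1, a master factor of red cell genes, at -0.25, and Gata4 at 0.49. The medians were 0.13 for E proteins and their binders, 0.02 for corepressors, 0.19 for NFE2 partners, 0.23 for other blood factors and 0.24 for other GATA factors, beside 0.03 over all genes tested. In TAF10KO against TAF10HET, Runx1t1, a relative of Cbfa2t3, was the only corepressor called, with 14.1 ± 5.61 CPM in TAF10KO livers (SD, n = 2) and 33.5 ± 0.27 CPM in TAF10HET livers (SD, n = 3), a log2 difference of -1.32 (SE 0.20, edgeR adjusted p = 0.0277). That call was lost when any 1 of TAF10HET replicates 2 and 3 and both WT livers was left out (edgeR adjusted p from 0.0835 to 0.125). Of the 15 activated genes 0 rose and 2 fell there, Hbb-bt at -2.68 and Hba-a2 at -0.65, and the call of Hba-a2 was lost under the same 4 omissions (edgeR adjusted p from 0.103 to 0.167). The activated genes that fell were 7 without TAF10KO replicate 1, 5 without TAF10HET replicate 1 and 3 without TAF10KO replicate 2, and DESeq2 called 8 lower. In TAF10HET against WT the only gene of any list called was Hbb-bt, at 5094 ± 272 CPM in TAF10HET livers (SD, n = 3) and 830 ± 194 CPM in WT livers (SD, n = 2). This call too was lost without WT replicate 1, WT replicate 2 or TAF10HET replicate 3 (edgeR adjusted p from 0.245 to 0.663). In TAF10KO livers Hbb-bt stood at 854 ± 308 CPM (SD, n = 2), near its level in WT livers. TAF10KO and WT livers are lox/lox by title, and every TAF10HET liver has a wt allele. That allele cannot be told apart from the genotype group where TAF10HET is compared, and its part in Hbb-bt was not tested. Adult beta globin copies and the alpha globin copies are near identical, so their counts are uncertain.

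**Figure D5:**
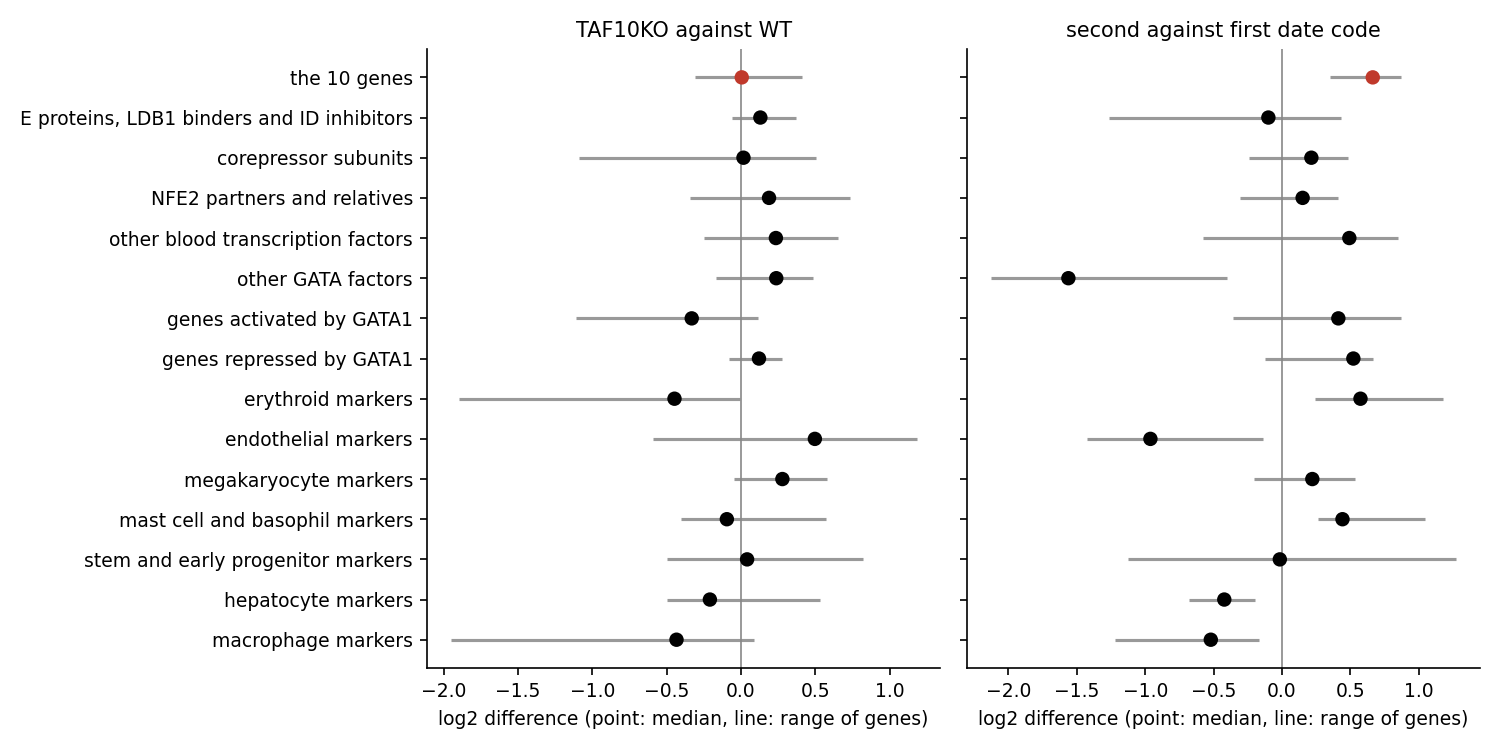
Median log2 difference of each list (point) and the range of its tested genes (line) for TAF10KO minus WT (left) and second minus first date code (right), with the 10 genes in red. The 10 genes have a median of 0.00 on the left and 0.66 on the right, where the erythroid markers are at 0.57 and the other GATA factors at -1.56.

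Markers of cell types were set beside these results, and no listed marker was at 0 in all livers. Between date codes 9 of 10 erythroid markers rose and 0 fell (median 0.57), with the embryonic globin Hbb-bh1 at 0.97 and the membrane protein Rhag at 0.60. Of 10 endothelial markers 0 rose and 9 fell (Tek at -1.30, Kdr at -0.96). Of 10 hepatocyte markers 0 rose and 8 fell (Apoa2 at -0.64, Fgb at -0.68), and of 10 macrophage markers 0 rose and 7 fell (Mrc1 at -1.22, Vcam1 at -0.91). The summed level of the erythroid list was 10560 to 18978 CPM on the second date code and 8690 to 11741 CPM on the first, which overlap. The endothelial sum was 221 to 293 CPM on the second and 403 to 581 CPM on the first, the hepatocyte sum 12892 to 16717 CPM on the second and 18069 to 20475 CPM on the first, and the macrophage sum 159 to 243 CPM on the second and 280 to 355 CPM on the first, none of which overlap. Without WT replicate 1 or 2 the erythroid markers that rose were 5, the macrophage markers that fell 3, and the hepatocyte markers that fell 5 without WT replicate 1 and 4 without WT replicate 2. The part of these shifts in the rise of the 10 genes was not tested. In whole livers, fewer cells of a type and less RNA per cell cannot be told apart.

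Markers of other cells that use the same factors were read as well. Of 10 megakaryocyte markers 3 rose and 0 fell between date codes (Itga2b at 0.33), of which 1 was left without TAF10HET replicate 1 or 3, with sums of 773 to 1081 CPM on the second and 708 to 896 CPM on the first. Of 7 mast cell and basophil markers 3 could be tested and 1 rose, the histamine enzyme Hdc at 0.44, with sums of 17.1 to 24.2 CPM on the second and 13.8 to 15.6 CPM on the first. The call of Hdc was lost without TAF10HET replicate 2 or any 1 of the TAF10KO and WT livers (edgeR adjusted p from 0.0549 to 0.0881). Of 8 stem and early progenitor markers 2 rose and 3 fell (Meis1 at -0.63, Mecom at -1.12), with sums of 95.1 to 107 CPM on the second and 104 to 113 CPM on the first. Megakaryocytes and mast cells use GATA1 or GATA2, and stem cells use GATA2 with Lyl1, Tal1 and Lmo2.

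Between TAF10KO and WT livers, 3 of 10 erythroid markers fell and 0 rose (median -0.45), and 0 of the 10 differences were positive. DESeq2 called 6 erythroid markers lower and 0 higher. At an unadjusted p under 0.05 edgeR had 7 lower and 0 higher, against 17.9% of all genes tested in either direction. Hbb-y, an embryonic globin, had 1208 ± 194 CPM in TAF10KO and 2417 ± 683 CPM in WT livers (SD, n = 2 each), a log2 difference of -0.98 (SE 0.13, edgeR adjusted p = 0.0300), and the transferrin receptor Tfrc was at -0.84 (adjusted p = 0.0438). Of 10 endothelial markers 2 rose and 0 fell (median 0.50), Flt1 at 1.18 (edgeR adjusted p = 0.0244) and Pecam1 at 0.64 (adjusted p = 0.0438). Of the 10 differences 9 were positive, and the lowest was -0.59. DESeq2 called 4 endothelial markers higher and 0 lower, and edgeR had 7 higher and 1 lower at an unadjusted p under 0.05. No erythroid marker was called when any 1 of TAF10HET replicates 2 and 3 and both WT livers was left out, while 4 to 6 fell when any 1 of the other 3 livers was left out. No endothelial marker was called without WT replicate 1, WT replicate 2 or TAF10HET replicate 3, 1 rose without TAF10HET replicate 2, and 5 to 7 rose when any 1 of the other 3 was left out. Among the other markers edgeR called none (DESeq2 called 2 megakaryocyte markers and 1 hepatocyte marker higher and 2 macrophage markers lower), and at an unadjusted p under 0.05 edgeR had 7 higher and 10 lower, with Itgb3 of megakaryocytes at 0.32, Hdc at 0.57, Cd34 of progenitors at 0.12, Afp of hepatocytes at -0.10 and Vcam1 of macrophages at -0.43. Macrophage markers called lower were 6 without TAF10KO replicate 1, 3 without TAF10HET replicate 1 and 1 without TAF10KO replicate 2, and megakaryocyte markers called higher were 2, 4 and 1 under the same omissions. At most 1 mast cell, stem cell or hepatocyte marker was called in either direction with any 1 liver left out. Medians were 0.28 for megakaryocyte, -0.10 for mast cell, 0.04 for stem cell, -0.21 for hepatocyte and -0.43 for macrophage markers. The erythroid sum was 8690 to 10560 CPM in TAF10KO, 10905 to 18978 CPM in TAF10HET and 11741 to 16595 CPM in WT livers, so TAF10KO did not overlap the others. The megakaryocyte sum was 896 to 1081 CPM in TAF10KO, 708 to 835 CPM in TAF10HET and 773 to 838 CPM in WT livers, so TAF10KO did not overlap the others there either. Over both date codes together, the other sums overlapped between TAF10KO and WT livers. Within each date code, the TAF10KO liver had the highest endothelial and mast cell sums and the lowest macrophage sum. The endothelial sum was 293 CPM in TAF10KO and 221 CPM in WT on the second, and 581 and 427 CPM on the first. The macrophage sum was 159 CPM in TAF10KO and 209.9 CPM in WT on the second, and 280.0 and 355 CPM on the first. The hepatocyte and stem cell sums did not keep to the same side. The endothelial sum was 293 to 581 CPM in TAF10KO, 230.3 to 403 CPM in TAF10HET and 221 to 427 CPM in WT livers, and the macrophage sum was 159 to 280.0 CPM in TAF10KO, 227 to 337 CPM in TAF10HET and 209.9 to 355 CPM in WT livers. The hepatocyte sum was 12892 to 20475 CPM in TAF10KO, 12946 to 18069 CPM in TAF10HET and 16717 to 20134 CPM in WT livers. Mast cell sums were 15.6 to 24.2 CPM in TAF10KO, 14.3 to 17.6 CPM in TAF10HET and 13.8 to 17.2 CPM in WT livers, and stem cell sums 104 to 107 CPM in TAF10KO, 95.1 to 106 CPM in TAF10HET and 102 to 113 CPM in WT livers. Beside these sums, the 10 regulators had a median TAF10KO minus WT difference of 0.00 on the log2 scale, and the part of cell makeup in it was not tested.

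Against TAF10HET livers, 4 of 10 erythroid markers fell in TAF10KO livers and 0 rose (Hbb-bh1 at -1.26, Hbb-y at -1.08), 4 of 10 endothelial markers rose and 0 fell (Flt1 at 1.18, Pecam1 at 0.63), and 1 of 10 macrophage markers fell (C1qa at -0.75). No gene of the megakaryocyte, mast cell, stem cell or hepatocyte lists passed there with edgeR, while DESeq2 called 3 megakaryocyte markers higher and 1 hepatocyte marker lower. At an unadjusted p under 0.05 edgeR had 8 genes of these 4 lists higher and 1 lower, against 17.1% of all genes tested. By that measure 7 erythroid and 8 macrophage markers were lower and 0 higher, and 6 endothelial markers were higher and 1 lower. DESeq2 called 6 erythroid markers lower, 4 endothelial markers higher and 1 lower, and 5 macrophage markers lower. Of the 10 macrophage differences 0 were positive (median -0.56). Without WT replicate 1, WT replicate 2 or TAF10HET replicate 3, only 1 erythroid marker fell and 0 endothelial markers rose. No macrophage marker was called without TAF10HET replicate 2 or 3 or either WT liver, and 6 fell without TAF10KO replicate 1, 5 without TAF10HET replicate 1 and 2 without TAF10KO replicate 2.

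Over the 7 livers, the genes outside the set whose pattern was most like that of Gata1 were Picalm, a clathrin adaptor protein gene (root mean square difference of centred log2 CPM 0.029), Slc20a1, a phosphate transporter gene (0.029), and Psme3, a proteasome activator gene (0.043), out of 9539 genes whose log2 CPM averaged 3 or more. Those most like Gata2 were Atg9a, an autophagy gene (0.057), Specc1 (0.063) and Bmp2k, a kinase gene (0.075). Within the set the pairs closest after Tal1 and Lyl1 were Lmo2 and Nfe2 (0.094), Zfpm1 and Cbfa2t3 (0.097) and Gata1 and Lmo2 (0.097), and the farthest were Lmo2 and Cbfa2t3 (0.347). All these values come from the same 7 libraries, which share the split by date code.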

How the data were processed

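RNA from 7 whole fetal livers was sequenced from TruSeq version 2 libraries, per the labels. The authors deposited raw read counts per gene, with TopHat2 2.0.8, DESeq2 and mm10 named in the submitters' processing notes. The counting program, annotation and strand setting are not stated in any source at hand. Ensembl identifiers were matched to GENCODE M21, which named 37693 of 39017, and the 1324 others held 0.198% of counts. Reads in no feature (6.81 to 10.1%), ambiguous (3.98 to 5.94%) or not unique (14.1 to 22.2%) were left out of library totals and tests.

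All 7 libraries were fitted in edgeR 4.0.16 (R 4.3.3) with TMM factors, filterByExpr, genotype and date code as terms, and robust two-sided quasi-likelihood tests, with Benjamini-Hochberg adjustment over 15800 genes and a threshold of 0.05. The biological coefficient of variation was 13.4% with the date code and 33.9% without it. Same-date livers of different genotype deviated together from their group means (correlations 0.40 to 0.74 over 8 pairs), so the date code was kept as a block. Deviations from a mean cancel within each group, so the 8 pairs are not independent. No 2 libraries of the same group agreed within sampling noise. CPM divides by library total times TMM factor; log2 CPM for patterns used a prior count of 2. DESeq2 1.42.0, other filters, scalings and terms, and each library left out were alternatives. The procedure was checked on simulated data, in which every gene had the same spread and far fewer genes changed with date code than here.

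Genes named were the 10 members and, from each of 14 other lists, up to 2 called genes with the smallest adjusted p or else the most abundant gene; where TAF10HET is compared, only called list genes are printed. Of the genes that the rule names, 2 are not reported here. Members and lists were chosen with earlier results of these data known. Intervals are 95%.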

Additional observations from a re-analysis of the deposited data

How the results depend on the processing

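Genotype calls depended on the settings and date calls much less. Among the 10 genes, those called for TAF10KO against WT were 0 with the date code in the model and 0 without it, 1 with DESeq2 (Ldb1), 2 with no filter on low counts (Zfpm1 and Ldb1), 6 with embryo sex as a term, and 0 to 2 when 1 liver was left out. For TAF10KO against TAF10HET they were 1 with DESeq2, 1 with no filter, 5 with embryo sex, and 0 to 1 with 1 liver left out. For TAF10HET against WT they were 0 in every setting run. For the date code they were 8 to 10 with 1 liver left out, 9 with library totals alone and 10 in the other settings.

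Over all genes, calls for TAF10KO against WT (96) were 589 with DESeq2, 1399 with no filter, 553 with only the groups compared, 2725 with embryo sex, 148 with library totals alone (chosen after seeing the data) and 0 to 1282 with 1 liver left out, with 0 without either WT liver. For TAF10HET against WT (1) they were 9, 289, 7 and 32 under the first 4 of these. With 1 liver left out they were 0 to 13. Taking globin genes out of the totals gave 0, but it also took those genes out of the tests. The 1 call was the globin gene Hbb-bt, so that 0 cannot show whether the call depends on the totals. For TAF10KO against TAF10HET (254) calls were 690, 1498, 26, 2743, 482 and 16 to 1203 under the settings listed for TAF10KO against WT. For the date code (6536) they were 3206 to 7303 with 1 liver left out, lowest without either WT liver.

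Without the date code as a replicate block, calls were 0 in all 3 genotype comparisons, and some signs of values that had not passed turned. For TAF10KO against WT this was Tcf3 (-0.00146). For TAF10HET against WT these were Gata1 (0.0861), Lmo2 (0.00704) and Gfi1b (0.0743), and for TAF10KO against TAF10HET Cbfa2t3 (-0.0692) and Gfi1b (-0.00434). Other turned signs were all of small values. Gata1 in TAF10HET against WT was 0.00024 with DESeq2, 0.000121 with no filter, 0.00293 with a floor of 5 CPM and 0.023 with embryo sex, where Gfi1b was 0.0279. Library totals alone gave Tal1 -0.00926 and Ldb1 -0.00229 there, and embryo sex gave Tal1 0.00745 in TAF10KO against WT.

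With 1 liver left out in turn, further values that had not passed turned sign. In TAF10KO against WT, Zfpm1 ran from -0.0153 to 0.697, Cbfa2t3 from -0.00787 to 0.562, Gfi1b from -0.12 to 0.32, Tcf3 from -0.214 to 0.193, Afp from -0.289 to 0.0555, Tal1 from -0.349 to 0.0597, Lyl1 from -0.329 to 0.0648 and Gata4 from -0.0425 to 0.977. In TAF10HET against WT, Gata1 ran from -0.0396 to 0.0294, Gfi1b from -0.115 to 0.0673 and Tal1 from -0.0201 to 0.199. In TAF10KO against TAF10HET, Zfpm1 ran from -0.0927 to 0.62, Cbfa2t3 from -0.115 to 0.456, Gfi1b from -0.0349 to 0.406 and Tal1 from -0.37 to 0.0386.

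The cause of these changes was not tested. With 2 or 3 livers a group, the 95% intervals set what could be seen, and Gata2 had the fewest reads of the 10 genes. Library totals alone shifted the median of all genes to 0.12 for TAF10KO against TAF10HET and to -0.10 for the date code.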
